A study of Mus musculus with 2 samples.

Results

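The genes described here encode 10 components of the vascular basement membrane: the type IV collagen chains Col4a1 and Col4a2, the multiplexins Col18a1 and Col15a1, the laminin chains Lama4, Lama5 and Lamc1, the linkers Nid1 and Hspg2, and the collagen-binding glycoprotein Sparc. They were chosen by symbol, and each had 1 row in both count tables, so that 10 of the 19845 gene symbols with a row in both tables are members (22726 symbols had a row at P6 and 21776 at P15). The study sorted CD31+CD45- endothelial cells by flow cytometry from the retinas of wild-type C57BL/6 mice at postnatal day 6 (P6), when vessels still spread across the retina, and at postnatal day 15 (P15), and sequenced single cells on a droplet platform. There was 1 library per age, each from an unstated number of animals, with no treatment and no transgene in either. The ages therefore cannot be told apart from the libraries, no test across samples was possible, and each interval below is a 95% interval that covers counting error only.

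A basement membrane is a thin sheet of matrix on which endothelial cells sit and which they share with pericytes. Laminin trimers, made of an alpha, a beta and a gamma chain, form one network at the cell surface through integrins and dystroglycan, and type IV collagen trimers, made in vessels of alpha1 and alpha2 chains, form another that bears the tension. Nidogens and perlecan tie the networks together, and the collagens XV and XVIII sit at the outer face of the sheet. Growing vessels lay down this matrix as they extend, and in the mouse retina and brain loss or mutation of the type IV collagen genes leads to fragile, bleeding vessels.

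Col4a1 (chr8:11198423-11312826, minus strand) and Col4a2 (chr8:11312805-11449287, plus strand) lie head to head on mouse build GRCm38. Their first exons overlap by 22 bases on opposite strands, and their promoter windows, which run from 250 bases before to 50 bases after each start in RefSeq on GRCm38.p6, share 78 bases. Both windows are shown because these genes are read from a common stretch and their UMI counts moved apart between the ages, as given further on. Capitals mark the 78 shared bases, which lie at chr8:11312777-11312854, and each sequence is written 5′ to 3′ along its own gene.
Col4a1 promoter, chr8:11312777-11313076, minus strand: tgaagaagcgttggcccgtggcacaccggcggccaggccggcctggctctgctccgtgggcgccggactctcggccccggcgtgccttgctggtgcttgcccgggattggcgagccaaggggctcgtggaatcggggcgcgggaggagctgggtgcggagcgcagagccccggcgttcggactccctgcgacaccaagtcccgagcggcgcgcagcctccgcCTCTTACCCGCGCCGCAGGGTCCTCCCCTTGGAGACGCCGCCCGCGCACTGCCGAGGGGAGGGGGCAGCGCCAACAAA
Col4a2 promoter, chr8:11312555-11312854, plus strand: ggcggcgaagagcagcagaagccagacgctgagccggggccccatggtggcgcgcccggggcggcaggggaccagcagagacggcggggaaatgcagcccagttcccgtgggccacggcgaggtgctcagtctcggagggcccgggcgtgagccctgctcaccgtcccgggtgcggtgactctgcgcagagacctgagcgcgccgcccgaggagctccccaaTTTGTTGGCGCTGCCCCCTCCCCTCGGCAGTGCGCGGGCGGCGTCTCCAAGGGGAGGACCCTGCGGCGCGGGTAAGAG
The 78 shared bases held 73.1% G and C. The median over all 32851 promoter windows, each of 300 bases, was 52.7%, and these lengths differ, so the values are not a like comparison. On either strand, neither window held TATAAA, which 13.6% of all windows held. Both held CCAAT once, as did 37.4% of all windows at least once, and GGGCGG stood once in the Col4a1 window and 3 times in the Col4a2 window, with a match in 35.7% of all windows. No entry was used for Lama4 and Lamc1, and 8 of the 10 members had a promoter window.

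Counts are of unique molecular identifiers (UMIs, 1 per captured transcript molecule), and a level is the UMIs of a gene per 1000000 UMIs of the cells summed, written CPM. The deposited tables held 1984 barcodes with 13958124 UMIs at P6 and 2141 barcodes with 11589641 UMIs at P15, and 7 barcode sequences occurred in both. The exclusion criteria of the study drop barcodes outside 200 to 3500 genes, those above 5% mitochondrial UMIs and those in which Cd63, Neurod1 or Hbb-bt was detected. After them 1424 P6 cells (7648189 UMIs) and 1644 P15 cells (7371443 UMIs) remained. The summed level of 8 endothelial markers in these cells was 7960 CPM at P6 and 12668 at P15, the highest being Cldn5. The summed level of 10 pericyte markers was 16.5 at P6, where Cspg4 had no UMI, and 331 at P15, where all 10 had UMIs and Rgs5 held most of them, so RNA of the cells that share this membrane was more abundant in the P15 library. Marker sums of other cell types were higher at P15 too, from 374 to 1237 CPM for 8 glial, 22.6 to 173 for 5 blood, 26.8 to 86.8 for 10 neural and 2.22 to 5.97 for 6 immune markers. Most of the glial sum was Glul (366 CPM at P6 and 1161 at P15), so it is largely the level of that gene. Rlbp1 went from 1.31 to 63.6 CPM, while Slc1a3, Gfap, Pax2 and Aqp4 had 7, 6, 0 and 2 UMIs at P15. Ribosomal protein genes held 13.6 to 26.8% of the UMIs of the P6 clusters and 9.13 to 19.7% of those of the P15 clusters. The part of the glial, blood, neural and immune RNA in the ratios below was not tested.

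The 10 genes together held 0.885% of all UMIs at P6 and 1.05% at P15, a P15 to P6 ratio of 1.19 (1.17 to 1.20), and most of these UMIs were of Sparc. Behind that sum the genes went different ways: Col18a1, Col15a1 and Col4a1 were lower at P15, Lama5 was higher, and the other 6 lay between these. A gene was called higher or lower where the ratio passed 1.5-fold and its interval left out 1, and by this rule 1 member was higher and 3 were lower. Among the 7459 genes with at least 200 UMIs, 16.6% were called higher and 9.69% lower at P15. The median ratio over the members was 0.891, against 1.09 over all genes tested.

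**Figure D1:**
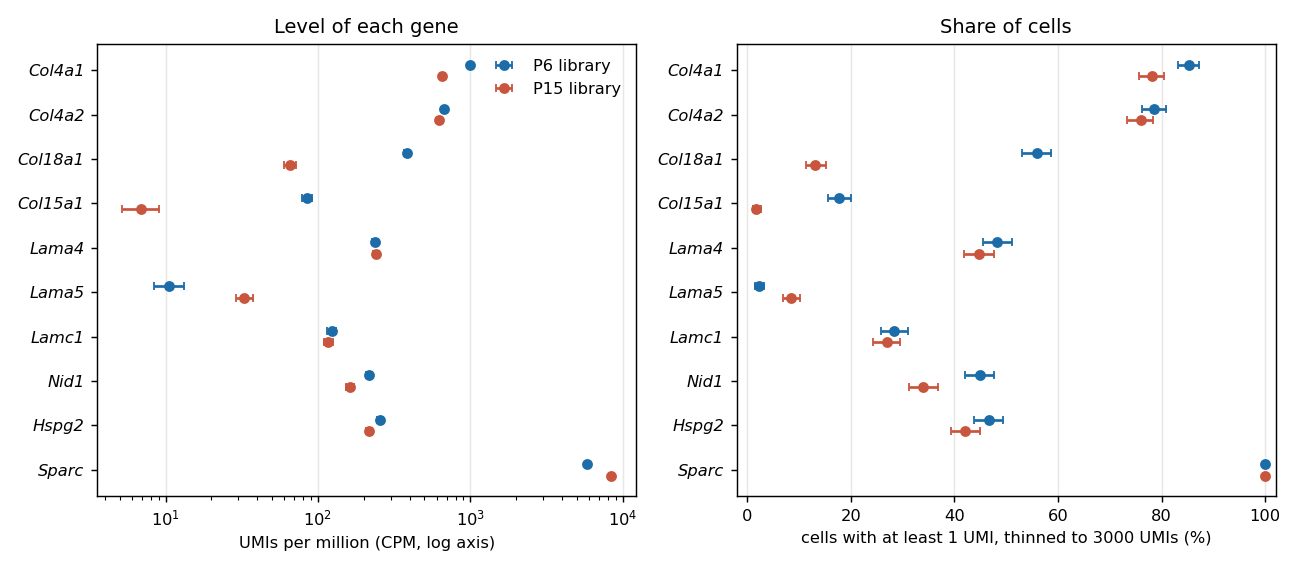
Level of each gene in the P6 and the P15 library (left, CPM on a log axis) and share of cells with at least 1 UMI at a fixed depth of 3000 UMIs per cell (right, %), in cells that pass the exclusion criteria. Bars are 95% counting intervals; Col18a1 and Col15a1 lie far lower at P15 (66.1 and 6.92 CPM) than at P6 (382 and 85.1), and Lama5 lies higher (33.0 against 10.6).

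The collagen chains with endostatin-type ends showed the largest differences. Col18a1 (chr10:77052178-77166548) encodes collagen XVIII, whose C-terminal fragment is endostatin, and it had 382 CPM at P6 and 66.1 at P15. The ratio was 0.173 (0.157 to 0.190). Col15a1 (chr4:47208161-47313167) encodes collagen XV, the close relative of collagen XVIII, and had 85.1 and 6.92 CPM, a ratio of 0.0813 (0.0599 to 0.108) that ranked 7447 from the top among the 7459 genes. The difference also stood in the share of cells: with the counts of every cell drawn down to 3000 UMIs (thinned), 55.9% of P6 cells and 13.2% of P15 cells held a Col18a1 UMI (70.8% and 19.0% before thinning), and 17.8% and 1.72% held a Col15a1 UMI (27.8% and 2.43% before thinning). At P15 no cell held more than 2 Col15a1 UMIs, whereas a P6 cell held up to 18.

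Shares in cells that should lack these genes are given for comparison. In the 65 P6 barcodes whose photoreceptor and neural markers outweighed their endothelial markers, with a median of 4383 UMIs, 13.8% held a Col18a1 UMI, 6.15% a Col15a1 UMI and 24.6% a Col4a1 UMI before thinning. Of the 38 Col4a1 UMIs of these barcodes 19 were in 1 barcode, and RNA free in the droplets cannot be told apart here from droplets that held more than 1 cell. The P6 shares of Col18a1 and Col15a1 in the endothelial cells, whose median depth was 4985.5 UMIs, lay above those of the neural-rich barcodes. The P15 share of Col15a1 before thinning, 2.43%, lay below the 6.15% of the P6 neural-rich barcodes but within its interval, which began at 1.70%. Those barcodes came from the other library and held 5 Col15a1 UMIs. At P15 only 8 neural-rich barcodes were found, none with a Col15a1 or Col18a1 UMI, too few to set a background level. Whether the Col15a1 UMIs at P15 were background was not tested.

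The type IV collagen pair, the main collagen of the sheet, split between the ages. Col4a1 had 998 CPM at P6 and 652 at P15, a ratio of 0.653 (0.630 to 0.677), while Col4a2 had 669 and 624, a ratio of 0.932 (0.895 to 0.970). Col4a1 therefore made up 59.9% (59.0 to 60.7%) of the UMIs of the pair at P6 and 51.1% (50.1 to 52.1%) at P15. This share does not depend on how the libraries were scaled. Both genes were found in most cells at both ages, with thinned shares of 85.3% and 78.1% for Col4a1 and 78.6% and 75.9% for Col4a2. Whether the counting used the strand is not given in the sources used here. Without it, reads from the 22 overlapping bases cannot be told apart between the genes, nor can those from 43 exon bases of Col4a2 that lie opposite Gm15419, which had 5 UMIs at P6 and 6 at P15. The call of Col4a1 rests near the threshold: with every barcode in the sums its ratio was 0.701, short of 1.5-fold.

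Among the laminins, the alpha chains differed from each other. Lama5 (chr2:180176373-180225859), the alpha5 chain that joins the membrane of more mature vessels, had 10.6 CPM at P6 and 33.0 at P15, a ratio of 3.11 (2.41 to 4.05). It was sparse, with 81 and 243 UMIs in all and a thinned share of 2.33% of cells at P6 and 8.51% at P15. Lama4 (chr10:38965515-39110188), the alpha4 chain made by endothelium from the earliest stages, had 236 and 240.1 CPM, a ratio of 1.02 (0.953 to 1.09). Lamc1 (chr1:153218922-153332786), the gamma1 chain that both kinds of trimer use, had 123 and 117 CPM, a ratio of 0.950 (0.865 to 1.04). Lama5 thus made up 4.30% (3.43 to 5.31%) of the alpha4 and alpha5 UMIs at P6 and 12.1% (10.7 to 13.6%) at P15.

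The linkers were somewhat lower at P15 and passed no threshold. Nid1 (chr13:13437551-13512269), nidogen-1, which bridges laminin and type IV collagen, had 217 CPM at P6 and 162 at P15, a ratio of 0.747 (0.693 to 0.805). Hspg2 (chr4:137468769-137570630), the heparan sulfate proteoglycan perlecan, had 255 and 217, a ratio of 0.851 (0.796 to 0.910). Sparc (chr11:55394500-55423183), which binds collagen and is secreted by endothelium in quantity, had 5874 and 8375 CPM, a ratio of 1.43 (1.41 to 1.44) that stayed short of 1.5-fold. Every thinned cell held Sparc at both ages. With every barcode in the sums the Sparc ratio was 1.59, past the threshold, and with libraries scaled to the median gene it was 1.30.

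Pericytes make several of these proteins too. In the P15 library, 74 barcodes held more pericyte than endothelial marker UMIs, and their levels were 1132 CPM for Col4a1, 976 for Col4a2, 485 for Nid1 and 237 for Lamc1, all above those of the P15 cells that passed the criteria. Hspg2 (114) and Sparc (5255) were lower there than in the passing cells, the intervals of Lama4 (219), Lama5 (18.0) and Col18a1 (50.9) overlapped those of the passing cells, and Col15a1 had no UMI among 333949, where 3 counts, the floor used here, would be 8.98 CPM and the upper 95% limit is 11.05 CPM. Leaving out every passing barcode with UMIs of 3 or more pericyte markers, 4 at P6 and 54 at P15, gave ratios of 0.656 for Col4a1, 0.174 for Col18a1, 0.0825 for Col15a1, 3.13 for Lama5 and 1.43 for Sparc. With those barcodes kept the ratios were 0.653, 0.173, 0.0813, 3.11 and 1.43 in the same order. Pericyte RNA in barcodes with fewer than 3 of the markers stays in both sets of ratios, and its part was not tested.

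**Figure D2:**
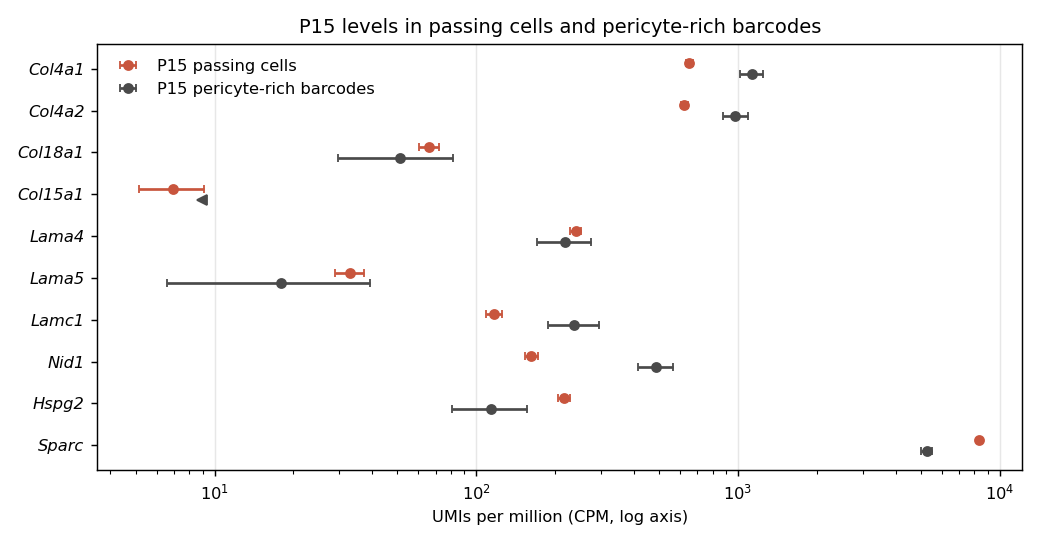
Levels of the 10 genes at P15 (CPM, log axis) in cells that pass the exclusion criteria and in the 74 pericyte-rich barcodes, with 95% counting intervals. Col4a1, Col4a2, Nid1 and Lamc1 were higher in the pericyte-rich barcodes; Col15a1 had no UMI in them, and its arrowhead stands at the floor of 3 counts, 8.98 CPM, below the upper 95% limit of 11.05.

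The study sorted its cells into 9 clusters, which it named Primitive, Proliferative, Tip and Stalk, and, by vessel type, Arterial, Cap-Arterial, Capillary, Cap-Venous and Venous. Cluster labels were used for 1560 P6 cells and 438 P15 cells. The P15 labels read were only part of the study's P15 labels, so P15 cell numbers per cluster here are not those of the study. Of the 438 cells 2 were Venous, so that cluster was not compared at P15. The clusters were made from the expression of these same cells, and Sparc stands in the study's list of capillary genes, so a cluster set against the rest is a description. At P6 the members were called higher in 16 and lower in 14 of the 90 pairs of gene and cluster, while over all genes 7.1% of pairs were higher and 9.53% lower. The pairs were not spread evenly, since 10 of the 16 higher pairs were in Capillary cells and 8 of the 14 lower pairs in Primitive cells.

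All 10 members were higher in the 149 P6 Capillary cells than in the other labelled P6 cells, where 14.5% of all genes were called higher. The ratios ran from 1.60 for Sparc (8739 CPM) to 3.37 for Col15a1 (249 CPM). Col4a1 stood at 1945 CPM there, 2.09 times the level of the others, Col4a2 at 1327, Hspg2 at 591, Lama4 at 507, Nid1 at 469 and Lamc1 at 285. These cells also differed in quality: they were the shallowest, with a median of 3204 UMIs, and had the highest mitochondrial share, 2.53% of UMIs against 0.966 to 1.28% in the other clusters. Their ribosomal protein share was 15.8%, against 13.6 to 26.8% in the others. With mitochondrial and ribosomal protein UMIs left out of the total, all 10 members were called. After thinning to 3000 UMIs, which kept 91 of the 149 cells, 8 were. Neither step selects cells by mitochondrial share, and the part of these features in the result was not tested.

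Primitive cells stood at the other end. In these 155 cells 8 members were lower, where 32.1% of all genes were, and the median gene had a ratio of 0.820. The other 2, Col4a2 (0.702) and Lama5 (0.402, 4 UMIs), did not pass the rule. Col4a1 stood at 514 CPM in Primitive cells, Nid1 at 103 (ratio 0.461), Lama4 at 113 (0.479) and Sparc at 3390 (0.577). These cells had the highest ribosomal protein share of the P6 clusters, 26.8%, and the lowest level of the nuclear RNA Malat1, 711 CPM against 4476 to 25795 in the others, and the part of these in the result was not tested. With each cluster scaled to its median gene, 5 members were lower there.

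**Figure D3:**
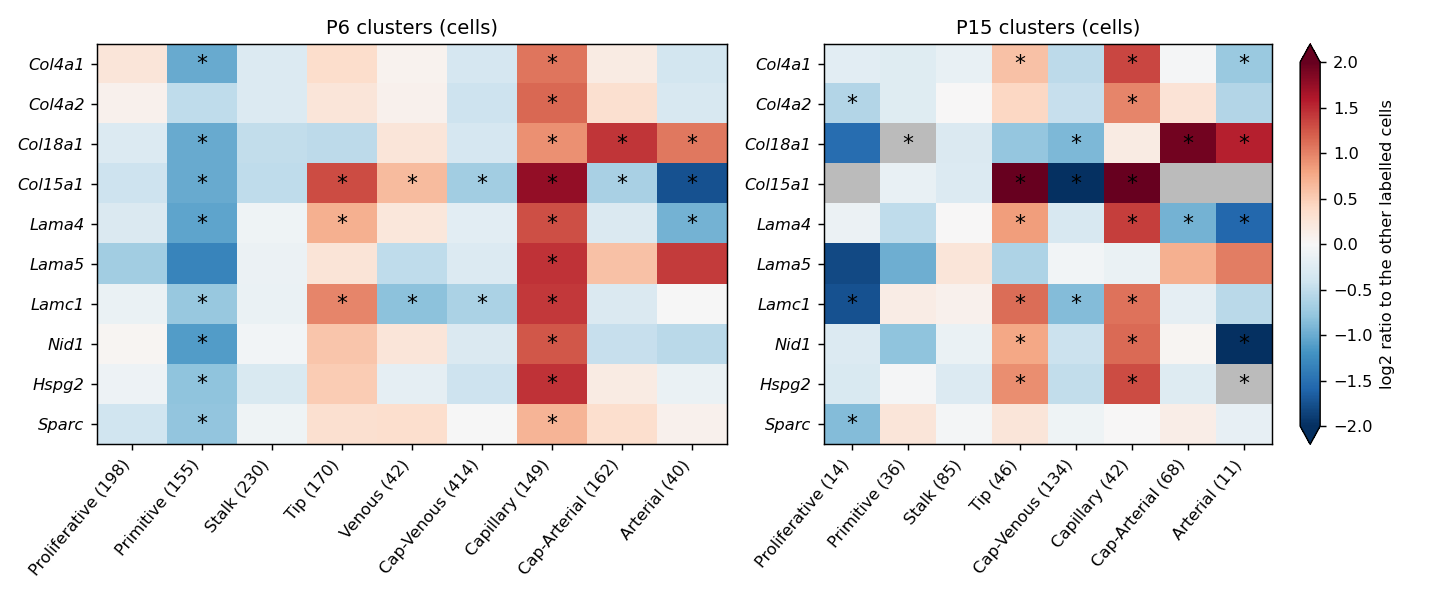
Log2 ratio of each gene in a cluster to the other labelled cells of the same age, at P6 (left, 9 clusters) and at P15 (right, the 8 clusters with at least 10 labelled cells), with the number of cells in parentheses. Stars mark ratios past 1.5-fold whose interval leaves out 1, grey marks a gene with no UMI; all 10 genes carry a star in P6 Capillary cells, and in the P6 panel Col18a1 and Col15a1 point opposite ways in the Cap-Arterial and Arterial columns.

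Col18a1 and Col15a1 took different places along the vessel tree. Col18a1 was highest in Cap-Arterial cells (839.7 CPM, 2.70 times the others) and Arterial cells (729, 2.09 times), followed by Capillary (643), Venous (418), Proliferative (303), Cap-Venous (300.2), Stalk (264), Tip (257) and Primitive cells (187). Only 3 of the 8 steps between neighbours in this order had intervals that did not overlap. Col15a1 was highest in Capillary cells (249), followed by Tip (175), Venous (127), Proliferative (65.1), Stalk (61.2), Cap-Venous (57.5), Cap-Arterial (55.0), Primitive (43.5) and Arterial cells (25.3), with 2 such steps. Of the summed UMIs of this pair, Col15a1 made up 40.5% (36.1 to 45.0%) in Tip cells, 6.15% (4.54 to 8.12%) in Cap-Arterial cells and 3.36% (1.098 to 7.66%) in Arterial cells.

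Tip cells, which lead the sprouts, had higher levels of Col15a1 (2.46 times the other cells), Lamc1 (1.96 times, 206 CPM) and Lama4 (1.64 times, 340 CPM). Of all genes, 4.92% were called higher in these cells. Hspg2, Nid1 and Col4a1 were 1.42, 1.46 and 1.28 times the others in Tip cells and did not pass 1.5-fold. The Stalk and the Proliferative clusters had no member called in either direction, where 2.52% of all genes were higher and 3.95% lower in Stalk cells and 7.76% and 8.89% in Proliferative cells, so that 0 of 10 is near the background. Lama5 was too sparse to order the clusters: its 5 UMIs in Arterial cells gave 25.3 CPM (8.22 to 59.1), and no step between neighbours had separate intervals.

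Col4a1 was ordered Capillary (1945), Tip (1219.8), Proliferative (1134), Cap-Arterial (1097), Venous (1037), Stalk (835), Cap-Venous (825), Arterial (769) and Primitive (514 CPM). Across the 9 P6 clusters the levels of Col4a1 and Col4a2 ran together, with a Pearson r of 0.946 on log2(CPM + 10), and over the 8 P15 clusters with at least 10 cells r was 0.932. The Col4a1 share of the pair lay between 58.3 and 62.8% in 8 P6 clusters and at 52.6% (49.3 to 55.8%) in Primitive cells. These points share 1 library per age and, at P6, the shallow Capillary cells at one end, so r is given as a description.

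The genes most like each member over the 9 P6 clusters were drawn from 5864 genes with at least 200 UMIs in the labelled P6 cells. Robo4, an endothelial guidance receptor, was the closest to Lama4 (r of 0.98), Nid1 (0.96) and Col15a1 (0.96), and over the 8 P15 clusters its r with them was 0.94, 0.97 and 0.71. Col18a1 was closest to Elovl1 (0.98, and 0.41 at P15), Heg1 (0.97, and 0.96 at P15) and Elf1 (0.97, and 0.81 at P15). For the other members the closest were Xiap for Col4a1 (0.97, and 0.34 at P15), Cltc for Col4a2 (0.94, and 0.49), Gaa for Lama5 (0.99, and 0.17), Sec11a for Lamc1 (0.98, and -0.67), Wipf1 for Hspg2 (0.97, and -0.39) and Egfl7 for Sparc (0.98, and 0.30). Apart from Col18a1, only the closest gene of each member is named. Among the genes named, the r over P15 clusters was mostly below 0.9, with Robo4 for Lama4 and Nid1 and Heg1 for Col18a1 above 0.9. The P6 values were picked as the highest among 5864 genes over 9 clusters, so a high r at P6 is built in.

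At P15, the members were called higher in 15 and lower in 12 of 80 pairs of gene and cluster, where 6.61% of all pairs were higher and 8.28% lower. Capillary cells (42 cells) again had many members higher: 7 of 10, where 7.31% of all genes were called higher. Col15a1 stood at 6.87 times the other cells (1.94 to 20.2, from 5 UMIs), Lama4 at 2.62 and Col4a1 at 2.52 times. Col18a1 (1.12), Lama5 (0.916) and Sparc (1.01) were the 3 not called there. Among the 8 clusters these cells also had the lowest depth (a median of 2268.5 UMIs), the highest mitochondrial share (1.84%) and the highest pericyte marker sum (463 CPM, against 20.4 to 352 in the other 7), and the part of these in the result was not tested. Tip cells (46 cells) had 6 members called higher, where 6.71% of all genes were. These were Col15a1 (4.75, 1.66 to 13.0, from 8 UMIs), Lamc1 (2.18), Hspg2 (1.91), Lama4 (1.78), Nid1 (1.71) and Col4a1 (1.502). Col18a1 was again highest in Arterial cells (143 CPM, from 7 UMIs) and Cap-Arterial cells (139). P15 Primitive cells had no member called apart from Col18a1, which was lower, with no UMI among 123914. In these cells 11.8% of all genes were called higher and 15.5% lower, so the counts of members are near the background.

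The ages were then compared within each of the 8 clusters that held at least 10 labelled cells at both ages, which keeps differences in the mix of clusters out of the ratio. Of 80 pairs of gene and cluster, 4 were higher and 21 lower at P15, where 9.91% of all pairs were higher and 6.54% lower. Most of the lower pairs, 14 of 21, came from the multiplexins.

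Col18a1 was lower at P15 in 8 of 8 clusters. The 7 clusters with UMIs at P15 had ratios from 0.0604 in Proliferative cells (2 UMIs, 0.00730 to 0.219) to 0.196 in Arterial cells (0.0773 to 0.414), and in Primitive cells, with no UMI at P15, the level was at least 7.72-fold lower against a floor of 3 counts, with 0.161 as the upper limit of the ratio. The ratio in Cap-Arterial cells, where Col18a1 was highest at P6, was 0.165 (0.118 to 0.226), from 839.7 to 139 CPM. Col15a1 was called lower in 6 of 8 clusters, with ratios of 0.190 (0.0607 to 0.455) in Capillary and 0.161 (0.0684 to 0.323) in Tip cells, and was at least 5.55-fold lower in Cap-Arterial cells, which had no UMI at P15, against the same floor (upper limit of the ratio 0.231). In Primitive cells (1 UMI at P15) and Arterial cells (5 UMIs at P6, none at P15) the counts were too few for a call.

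**Figure D4:**
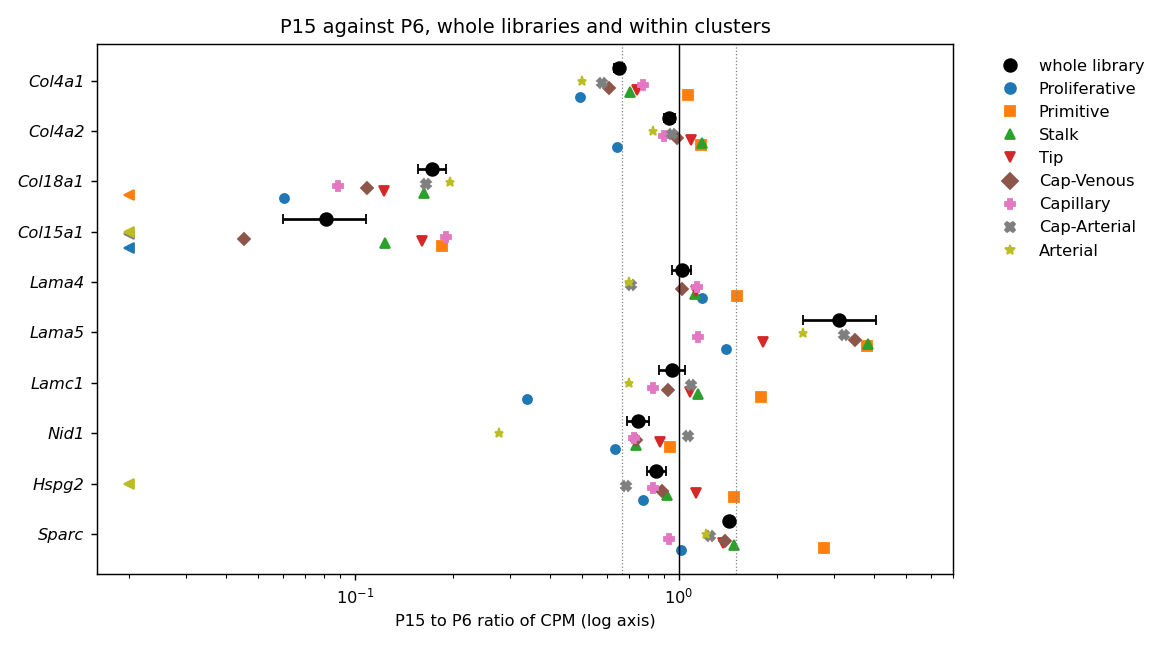
P15 to P6 ratio of CPM (log axis) for each gene in the whole libraries (black, with 95% counting intervals, cells that pass the criteria) and within 8 clusters (coloured marks, labelled cells). Dotted lines mark 1.5-fold either way and left-pointing arrowheads a gene with no UMI at P15; every Col18a1 mark lies left of the dotted lines and every Lama5 mark right of 1.

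Lama5 had a ratio above 1 in 8 of 8 clusters and was called higher in 3: Stalk (3.83, 1.67 to 8.84), Cap-Venous (3.48, 1.87 to 6.50) and Cap-Arterial cells (3.22, 1.38 to 7.63). The median ratio over all genes ran from 0.939 in Arterial to 1.07 in Stalk cells. In the other clusters the Lama5 intervals held 1, with 1 UMI at P15 in Proliferative, 2 in Primitive and 3 in Arterial cells. The Lama5 ratio in Capillary cells was 1.14 (0.209 to 4.15), from 13 and 3 UMIs. In Cap-Arterial cells Lama5 made up 7.19% (3.77 to 12.2%) of the alpha4 and alpha5 UMIs at P6 and 25.9% (14.96 to 39.7%) at P15. Lama4 was called in no cluster, with ratios from 0.700 in Arterial to 1.51 in Primitive cells.

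Col4a1 was called lower at P15 in 4 clusters: Proliferative (0.493), Arterial (0.503), Cap-Arterial (0.578) and Cap-Venous (0.608). Its ratio was 0.706 in Stalk, 0.741 in Tip, 0.773 in Capillary and 1.07 in Primitive cells. Col4a2 was called lower in Proliferative cells alone (0.641, 0.468 to 0.858). The Col4a1 share of the pair was lower at P15 in 8 of 8 clusters, and its intervals at the ages did not overlap in 4 of them: Stalk (60.6% at P6 and 47.9% at P15), Tip (62.0% and 52.7%), Cap-Venous (61.4% and 49.5%) and Cap-Arterial cells (58.3% and 45.9%).

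**Figure D5:**
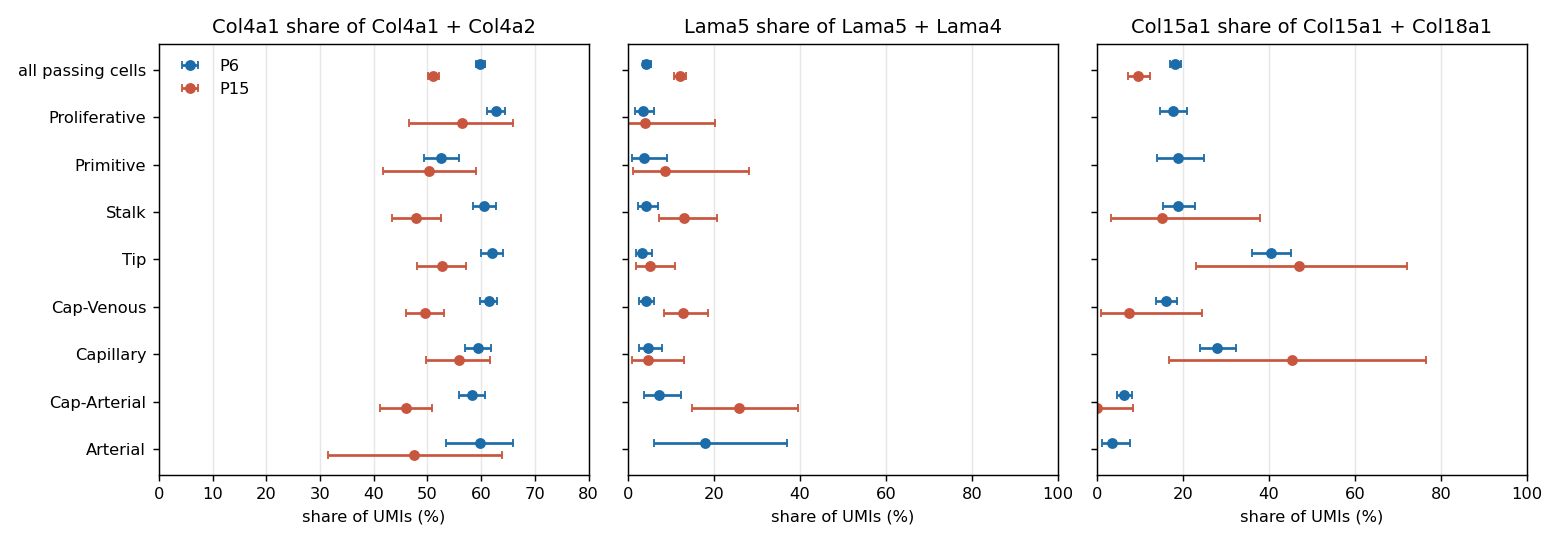
Share of the first gene in the UMIs of a pair (%), at P6 and P15, in all passing cells and in 8 clusters: Col4a1 of Col4a1 and Col4a2 (left), Lama5 of Lama5 and Lama4 (middle), Col15a1 of Col15a1 and Col18a1 (right). Bars are 95% binomial intervals, and points with fewer than 10 UMIs in the pair are left out; the Col4a1 share was 59.9% at P6 and 51.1% at P15 in passing cells.

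Sparc was called higher at P15 in Primitive cells alone, from 3390 to 9458 CPM, a ratio of 2.79 (2.61 to 2.98). In the other clusters its ratio ran from 0.929 in Capillary to 1.48 in Stalk cells, so that the Primitive cells, lowest of the P6 clusters for Sparc, were highest of the 8 P15 clusters, with Tip cells next at 9300.2 CPM and within the interval. The P15 Primitive cells used here numbered 36, from part of the study's labels. These cells were shallow, with a median of 2704.5 UMIs against 5148 at P6, and their pericyte marker sum was 250.2 CPM against 5.31. None of them held 3 pericyte markers, and the part of depth and pericyte RNA in the Sparc ratio was not tested. The remaining lower pairs were Lamc1 in Proliferative cells (0.339, 0.0914 to 0.883, from 4 UMIs at P15) and Hspg2 in Arterial cells, which had no UMI among 49082 at P15 and was at least 3.56-fold lower against the floor of 3 counts (upper limit of the ratio 0.361). Nid1 was called in no cluster, with a ratio above 1 in Cap-Arterial cells alone (1.07).

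The other genes of the membrane and its making were read from lists with the same rule, over genes with at least 50 UMIs in the passing cells. Of all genes with that many UMIs, 18% were higher and 11.2% lower at P15, with a median ratio of 1.09. Of the other type IV collagen chains only Col4a3, which joins other trimers, had enough UMIs, and it was higher at P15 (8.89 to 33.2 CPM, ratio 3.74, 2.85 to 4.97). Of 3 laminin chains Lamb2, the beta2 chain, was higher (1.54) and Lama3 lower (0.519), while Lamb1, the beta1 chain, had a ratio of 0.753 and passed no threshold. Neither list is large enough to set beside the share of all genes.

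Of 9 other nidogen, proteoglycan and linker genes, 4 were higher and 1 lower, with a median ratio of 1.33. Sparcl1, the relative of Sparc also known as hevin, was higher (981 to 2204 CPM, ratio 2.25), as were Fn1, fibronectin (1.66), and Tinagl1 (2.66). Vtn, vitronectin, a product of brain pericytes, went from 2 to 257 UMIs (ratio 133, 36.5 to 1107), in the library with the 331 CPM of pericyte markers, and the part of pericyte RNA in it was not tested. Fbln1, fibulin-1, was lower (58.6 to 10.7, ratio 0.183).

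Of 12 genes that fold and export collagens, Plod1, a lysyl hydroxylase, was higher (1.51) and Bmp1, a procollagen proteinase, lower (0.659), and the median ratio was 1.12. Serpinh1, the collagen chaperone HSP47, had 1297 and 1445 CPM. Of 3 cross-linking genes Tgm2, a transglutaminase, was higher (3.21) and Loxl2, a lysyl oxidase that acts on type IV collagen, lower (0.586), and Pxdn, the peroxidasin that makes the sulfilimine bonds of type IV collagen, had a ratio of 0.708.

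Of 11 genes of breakdown and its inhibitors, 4 were higher and 3 lower. Those furthest from 1 were the proteases Adamts1 (35.3 to 148 CPM, ratio 4.18) and Htra1 (72.4 to 253, ratio 3.50), which were higher, and the inhibitor Timp1 (51.0 to 18.9, ratio 0.370) and the membrane-bound metalloproteinase Mmp14 (145 to 68.6, ratio 0.474), which were lower. Of 8 receptors, the collagen-binding integrin subunit Itga1 (1.70) and Bcam (1.91), a receptor of the laminin alpha5 chain, were higher. Itga2, which also binds collagen, went from 70 to 2 UMIs (ratio 0.0296, 0.00352 to 0.111), and Itga3 was lower (0.418). Itgb1, the beta chain shared by most of these integrins, had a ratio of 0.961. Of 8 fibrillar and interstitial collagens, the collagens of stroma, only Col5a2 reached 50 UMIs (ratio 0.860), and Col1a1 had no UMI in the passing cells of either library.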

How the data were processed

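The deposited tables hold whole-number UMI counts per gene and cell, made by the authors before any normalization. The submitters' processing notes name mm10 and Seurat 3.0, and the aligner and counter are not given in the sources used here. Ensembl IDs were matched to symbols (GENCODE M21) for 22695 of 22734 P6 and 21745 of 21785 P15 rows. The cells used were those passing the study's exclusion criteria as read here or those with a cluster label in its source data, which was shortened at P15. No doublet caller was run. Counts were summed and divided by total UMIs, with exact Poisson, conditional binomial and Clopper-Pearson intervals at 95% in SciPy 1.17.1 (Python 3.11.15). Alternatives changed the cells, depth, totals and weighting. The intervals were tried on simulated Poisson counts, which hold no spread between cells or animals, so that trial covers counting error alone. The members and lists were chosen with earlier results of these data known. Genes named beside the members were those called in each list (at least 50 UMIs, the 4 furthest from 1 where more were called) and those most alike over P6 clusters; Fn1, Lamb1, Serpinh1, Pxdn, Itgb1, Col5a2 and Col1a1 were added after their values were seen. With 1 library per age, no p-value was computed.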

Additional observations from a re-analysis of the deposited data

Results flagged for a closer look

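Sparc in Primitive cells stood out because it lay below the other labelled cells at P6 (ratio 0.577, 0.556 to 0.598) and above them at P15 (ratio 1.19, 1.12 to 1.26). Sparc in Arterial cells stood out likewise, as it lay slightly above the others at P6 (1.06, 1.004 to 1.13) and slightly below at P15 (0.896, 0.804 to 0.995). The difference between the ages was not tested in either cluster, since each age was 1 library, and the P15 values rest on 36 Primitive and 11 Arterial cells.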

How the results depend on the processing

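With 1 library per age, counting intervals understate the error between animals, and no library could be left out. No paired analysis was possible because each age has 1 library. The summed P15 to P6 ratio of the 10 genes, 1.19, was 1.30 with every barcode, 1.16 without the criterion on Cd63, 1.15 after thinning, 1.07 without mitochondrial and ribosomal protein UMIs in the total, 1.08 with libraries scaled by the median ratio, 1.12 as a mean over cells and 1.15 with P15 clusters weighted by their P6 share, and above 1 in each. With every barcode, 2 members were higher, Lama5 and Sparc, and 2 lower, Col18a1 and Col15a1. Over 9 alternatives the ratio ran from 0.117 to 0.188 for Col18a1, from 0.0731 to 0.107 for Col15a1, from 0.587 to 0.701 for Col4a1 and from 2.66 to 3.78 for Lama5. The summed ratio of Primitive cells to the other P6 cells, 0.567, was 0.540 after thinning, 0.622 without mitochondrial and ribosomal protein UMIs, 0.523 in cells that also pass the criteria, 0.511 as a mean over cells and 0.692 scaled by the median ratio, where 5 members were lower in place of 8. That of Capillary cells, 1.82, was 1.74 without mitochondrial and ribosomal protein UMIs and 1.74 as a mean over cells. Scaling clusters by the median ratio was chosen after seeing the data. No called value changed direction under these alternatives, and the cause of the differences was not tested.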
